A study of Mus musculus with 6 samples.

Results

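Small RNA libraries from the nucleus accumbens (NAc) of mice were examined for 8 mature miRNAs that are known from blood immune cells, from microglia or from inflammation. The members were the rows of the deposited count table named mmu-miR-142a-3p, mmu-miR-142a-5p, mmu-miR-223-3p, mmu-miR-146a-5p, mmu-miR-146b-5p, mmu-miR-155-5p, mmu-miR-150-5p and mmu-miR-21a-5p (the species prefix is dropped from here on), and all 8 were present among the 1364 rows. The mice were male C57BL/6N of 7 to 8 weeks. The morphine group was conditioned for 6 days with 10 mg/kg morphine in the conditioned place preference (CPP) test and the saline group with saline alone. NAc tissue was taken 0.5 h after the preference test on day 7. Each group had 3 libraries. The sources used here differ on whether a library holds the tissue of 1 mouse or of 2, with 6 mice in a group in the latter case. The tissue was dissected whole, so it holds neurons, glia, vessels and the blood in them, and whether the brains were perfused is not given in the sources used here.

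A miRNA is cut from a hairpin transcript as a duplex of about equal arms, named 5p and 3p, and usually 1 arm is kept to guide silencing of mRNAs that pair with its seed, bases 2 to 8. miR-142 and miR-223 are made in blood-derived cells, miR-223 mostly in myeloid cells, and in the brain miR-142 is associated with microglia and infiltrating leukocytes. miR-146a and miR-155 are induced by Toll-like receptor and NF-kB signalling, and miR-146a damps this signalling by repressing the adaptors Traf6 and Irak1, while miR-155 represses Socs1. miR-150 is abundant in mature lymphocytes and represses Myb, and miR-21 is found in many cell types and rises after injury and inflammation.

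The mature sequences are shown because the seed sets which mRNAs a miRNA can address, and because a pair of the members differ so little that their counts need to be read together. RefSeq gave the mature sequence (GRCm38.p6) of 7 of the 8 members, and miR-150-5p was not matched. Capitals mark the seed, and each sequence is written 5′ to 3′.
miR-142a-5p: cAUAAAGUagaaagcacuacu
miR-142a-3p: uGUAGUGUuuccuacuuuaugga
miR-223-3p: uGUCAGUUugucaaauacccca
miR-146a-5p: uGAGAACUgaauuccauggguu
miR-146b-5p: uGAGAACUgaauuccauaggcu
miR-155-5p: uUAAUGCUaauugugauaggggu
miR-21a-5p: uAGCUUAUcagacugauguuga
These 7 sequences carry 6 different seeds. miR-146a-5p and miR-146b-5p share theirs, and none of the other 5 shared a seed with another row among the 1089 rows of the table that have a RefSeq mature sequence. The miR-146 pair is identical at 20 of 22 bases, with the substitutions G18A and U21C, counted from 1 at the 5′ end, with the base of miR-146a-5p first. The 7 are 21 to 23 bases long, with a GC content between 33.3% and 40.9%.

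The loci lie apart from each other in the GENCODE vM21 annotation of GRCm38, except that 3 hairpins are on chromosome 11. Mir142 (chromosome 11, 87756864 to 87756927, plus strand) lies in an intron of the lincRNA Mir142hg and opposite the annotated hairpin Mir142b. Mir146, the source of miR-146a (chromosome 11, 43374397 to 43374461, minus strand), overlaps no other gene. Mir21a (chromosome 11, 86584067 to 86584158, minus strand) overlaps a UTR exon of Vmp1 on the same strand. Mir146b (chromosome 19, 46342762 to 46342870, plus strand) is in an intron of Mfsd13a. Mir155 (chromosome 16, 84714140 to 84714204, plus strand) overlaps an exon of its host lincRNA Mir155hg. Mir223 (chromosome X, 96242817 to 96242926, plus strand) overlaps an exon of F630028O10Rik.

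Total counts lay between 4183333, in saline replicate 1, and 9842050, in morphine replicate 1. On the TMM-scaled level used in the text, 3 counts gave between 0.315 and 0.549 counts per M counts (CPM), a limit that covers counting error only, since PCR reads without molecular identifiers are not independent molecules. Saline replicate 2 stood apart from its own group. Its Spearman correlations over 899 miRNAs were 0.869 and 0.874 with the other saline libraries and 0.907 to 0.926 with the morphine libraries. Saline replicates 1 and 3 correlated at 0.952 with each other and at 0.864 to 0.883 with the morphine libraries. The TMM factors were 1.306 and 1.322 for saline replicates 1 and 3, 0.8 for saline replicate 2 and 0.842 to 0.936 for the morphine libraries. The differences of the members that rest on saline replicate 2, and of the markers of other cells whose call changed without it, are given below with and without it. Of 4 neuronal miRNAs, all 4 were present in every library, with a summed level of 127164 to 271319 CPM in the saline group, or up to 142244 CPM without saline replicate 2, and 176797 to 205120 CPM in the morphine group. The levels in the text are CPM after TMM scaling, and differences are log2 fold changes, morphine minus saline, from edgeR's quasi-likelihood test on all 1364 rows, with their standard error (SE) and, for adjusted p, Benjamini-Hochberg adjustment over all rows. Because the tissue is bulk, fewer cells of a type and less RNA per cell cannot be told apart in any of these values.

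Of the 8 members, 1 was upregulated and 2 were downregulated in the morphine group by the criteria for DEmiRNAs used here. These were an unadjusted p of 0.05 or less together with a log2 fold change of 0.58 or more in either direction, the thresholds of the original DEmiRNA selection. The criteria were met by 19.4% of all rows, 9.68% in each direction. The upregulated member was miR-146a-5p, and the downregulated members were miR-150-5p and miR-21a-5p. With an adjusted p under 0.05, miR-146a-5p and miR-150-5p were left, where 5.21% of all rows passed, 3.08% higher and 2.13% lower. The members did not move together, since their median log2 fold change was -0.24, against -0.15 over all rows, and they ranged from -2.03 to 2.29. For miR-146a-5p, miR-150-5p and miR-155-5p the TMM-scaled levels did not overlap between the groups, which was so for 22.1% of all rows. Scaled to library totals alone, those of miR-155-5p overlapped.

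**Figure D1:**
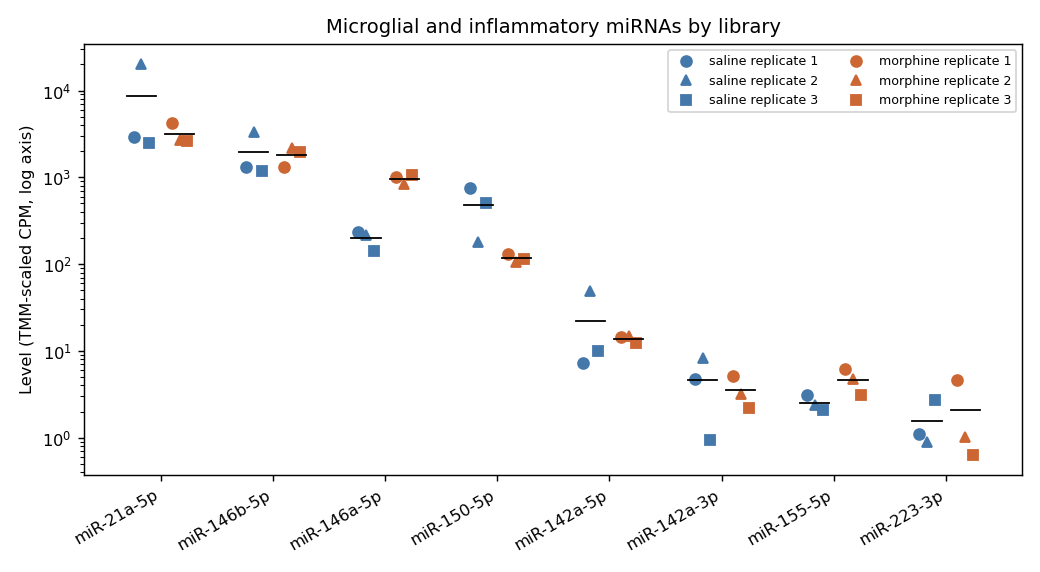
Level of each member in TMM-scaled CPM (log axis) in the 3 saline libraries (blue) and 3 morphine libraries (orange). Marker shapes give the replicate number and bars the group mean. miR-146a-5p is higher and miR-150-5p lower in every morphine library, and the triangle of saline replicate 2 lies far above the other 5 libraries for miR-21a-5p and miR-142a-5p.

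miR-146a-5p, the feedback inhibitor of NF-kB signalling, rose 4.89-fold. It was at 237, 214 and 141.7 CPM in saline replicates 1, 2 and 3 and at 1009, 835 and 1054 CPM in morphine replicates 1, 2 and 3. Every morphine library was thus above every saline library, and saline replicate 2, which is unlike the rest of its group for other members, lay between the other saline libraries here. The groups averaged 198 ± 49.8 CPM (SD, n = 3) and 966 ± 116 CPM (SD, n = 3), a log2 fold change of 2.29 ± 0.45 (SE), with an adjusted p of 0.00582 in edgeR's quasi-likelihood test. Among all 1364 rows ordered by mean level, it went from place 166 in the saline group to place 88 in the morphine group. Without morphine replicate 1 the log2 fold change was 2.35 with an adjusted p of 0.0886 from the same edgeR test, and that was the largest adjusted p of its 18 alternative settings. Its log2 fold change stayed between 1.96 and 2.54 in all 18.

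miR-146b-5p has the seed of miR-146a-5p but its own locus on another chromosome, and it did not show the same difference. Its level was 1316, 3326 and 1193 CPM in the saline libraries and 1302, 2177 and 1982 CPM in the morphine libraries. The groups overlapped, with saline replicate 2 the highest of the 6. Its log2 fold change of -0.10 ± 0.49 (SE) had a 95% interval from -1.11 to 0.92 and an edgeR adjusted p of 0.927. Leaving out saline replicate 2 turned it to 0.54 ± 0.24 (SE), with an edgeR adjusted p of 0.0831, and leaving out morphine replicate 1 turned it to 0.21.

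The balance within the pair moved accordingly. The ratio of miR-146b-5p to miR-146a-5p does not depend on how libraries are scaled, and was 5.55, 15.5 and 8.42 under saline and 1.29, 2.61 and 1.88 under morphine. All 3 morphine libraries were below all 3 saline libraries. On the log2 scale the ratio averaged 3.17 ± 0.75 (SD, n = 3) under saline and 0.89 ± 0.51 (SD, n = 3) under morphine. This difference of -2.28 reached the smallest p that 3 libraries against 3 allow (exact two-sided permutation test, p = 0.1), and it was -1.89 without saline replicate 2. miR-146a-5p made up 10.7% ± 4.61 (SD, n = 3) of the pair's summed level under saline and 35.4% ± 7.99 (SD, n = 3) under morphine. The summed level of this shared seed was 1554, 3540 and 1334 CPM in the saline libraries and 2312, 3012 and 3036 CPM in the morphine libraries. It overlapped between the groups only through saline replicate 2, the highest of all 6. The pair differs at 2 bases near the 3′ end, G18A and U21C, and how the authors assigned reads that end before them or carry an error there is not given in the sources used here.

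**Figure D2:**
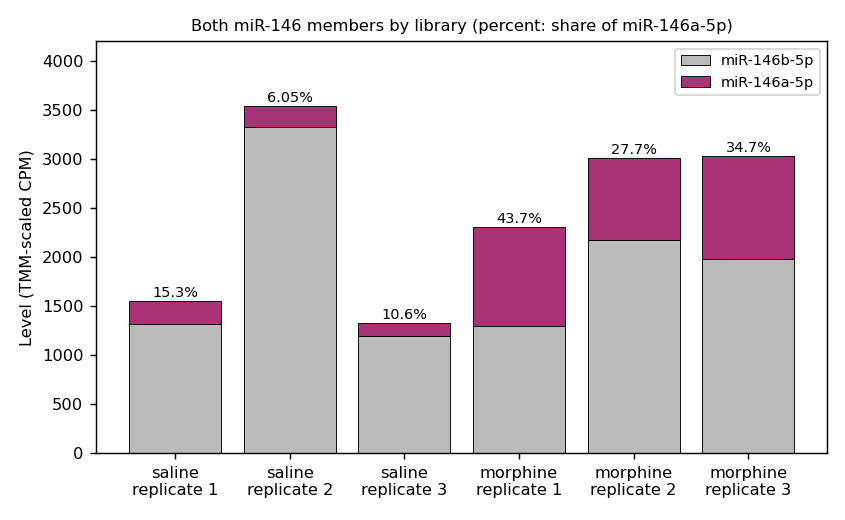
Stacked TMM-scaled CPM of miR-146b-5p (grey) and miR-146a-5p (purple) in each library, with the share of miR-146a-5p printed above each bar. The purple part is 6.05% to 15.3% of the bar in the saline libraries and 27.7% to 43.7% in the morphine libraries.

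miR-150-5p, which is abundant in mature lymphocytes but was measured here in whole tissue, fell by 2.03 on the log2 scale. Its level was 744, 180 and 503 CPM in the saline libraries and 130, 106 and 115 CPM in the morphine libraries. The groups did not overlap, but saline replicate 2 was closer to the morphine libraries than to the other saline libraries. The means were 476 ± 283 CPM (SD, n = 3) and 117 ± 11.9 CPM (SD, n = 3), and edgeR gave the difference an SE of 0.51 and an adjusted p of 0.0301. The saline means of miR-142a-5p, miR-142a-3p and miR-223-3p, which are also known from blood cells, were 22.1, 4.65 and 1.58 CPM. Which cells the miR-150-5p reads came from was not tested. The DEmiRNA criteria were met in all 18 alternative settings, with log2 fold changes between -2.50 and -1.46. The adjusted p was under 0.05 in 10 of the 18 and was 0.0968 without saline replicate 1, and 0.264, 0.122 and 0.0927 without morphine replicates 1, 2 and 3 (edgeR). In the group means miR-150-5p and miR-146a-5p thus changed places, miR-150-5p going from place 114 to place 196. The other arm, miR-150-3p, had 17, 8 and 25 counts under saline and 7, 11 and 1 under morphine, with an edgeR adjusted p of 0.388 for its log2 fold change of -1.42. Without saline replicate 2 this was -1.72, with an edgeR adjusted p of 0.0215. In that fit 29.1% of all rows had an adjusted p under 0.05.

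miR-21a-5p was the most abundant member in every library, and its call rested on 1 library. It was at 2899, 20448 and 2507 CPM in saline replicates 1, 2 and 3 and at 4225, 2659 and 2606 CPM in morphine replicates 1, 2 and 3. The other saline libraries lay within or just below the range of the morphine group, and saline replicate 2 was far above all others. edgeR gave a log2 fold change of -1.45 ± 0.61 (SE), at an unadjusted p of 0.0304 and an adjusted p of 0.195. It became 0.23 ± 0.23 (SE) when saline replicate 2 was left out, at an edgeR adjusted p of 0.540. The call was also lost without morphine replicate 1, at an unadjusted p of 0.124 in edgeR, and without morphine replicate 2, at 0.0716. The other arm, miR-21a-3p, had 2, 5 and 1 counts under saline and none under morphine, too few for a fold change. In saline replicate 2 the 8 members together took 1.94% of all counts, against 0.486% to 0.681% in the other 5 libraries, and without miR-21a-5p the share was 0.302% there and 0.227% to 0.302% in the others.

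miR-142a, in the brain associated with microglia and infiltrating leukocytes, was low in both groups, and neither arm met the criteria. miR-142a-5p was at 7.32, 49.0 and 9.86 CPM in the saline libraries and at 14.6, 14.7 and 12.2 CPM in the morphine libraries. The morphine libraries were close together and lay above saline replicates 1 and 3 and below saline replicate 2. The 95% interval of its log2 fold change, -0.67 ± 0.64 (SE), ran from -2.004 to 0.66 (edgeR adjusted p = 0.584), and the estimate was 0.68 ± 0.42 (SE) without saline replicate 2. miR-142a-3p had 26, 55 and 9 counts under saline and 46, 22 and 14 under morphine, or 4.76, 8.25 and 0.944 against 5.09, 3.22 and 2.20 CPM. Saline replicates 2 and 3 were the highest and the lowest of the 6. Here the log2 fold change was -0.39 ± 0.73 (SE), with an edgeR adjusted p of 0.781 and a 95% interval from -1.89 to 1.11, and it turned to 0.39 without saline replicate 2.

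The counts of miR-142a-3p were equal to those of miR-142b in all 6 libraries. miR-142b is annotated on the opposite strand, and its reverse complement is identical to bases 4 to 23 of miR-142a-3p, so the values of these rows cannot be assigned to a strand. The hairpin is shown to place both members, with the 5p arm and then the 3p arm in capitals.
Mir142: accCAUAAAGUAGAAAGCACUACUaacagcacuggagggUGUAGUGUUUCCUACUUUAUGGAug
Reads of the 5p arm were in excess in all 6 libraries. Their share of both arms was 60.6%, 85.6% and 91.3% under saline and 74.2%, 82.0% and 84.8% under morphine. The lowest share, in saline replicate 1, had an exact Clopper-Pearson 95% interval of 47.8% to 72.4%, which covers counting error only. This interval includes equal shares of both arms and does not reach the share of any other library. The group means were 79.2% ± 16.3 (SD, n = 3) and 80.3% ± 5.50 (SD, n = 3), a difference of 1.15 percentage points (exact two-sided permutation test, p = 1). miR-146b, miR-150 and miR-21a were the other hairpins with a row for each arm and at least 10 counts over both in every library. Their 5p arm took 98.5% or more in each library. The exact permutation p for these was 1, 0.8 and 0.1, and after Benjamini-Hochberg adjustment over the 4 hairpins the lowest was 0.4. miR-223 is represented by its 3p arm alone, and its 5p arm had 2 to 4 counts in each library. For miR-146a and miR-155 the 3p arm had no row, so no share could be computed.

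**Figure D3:**
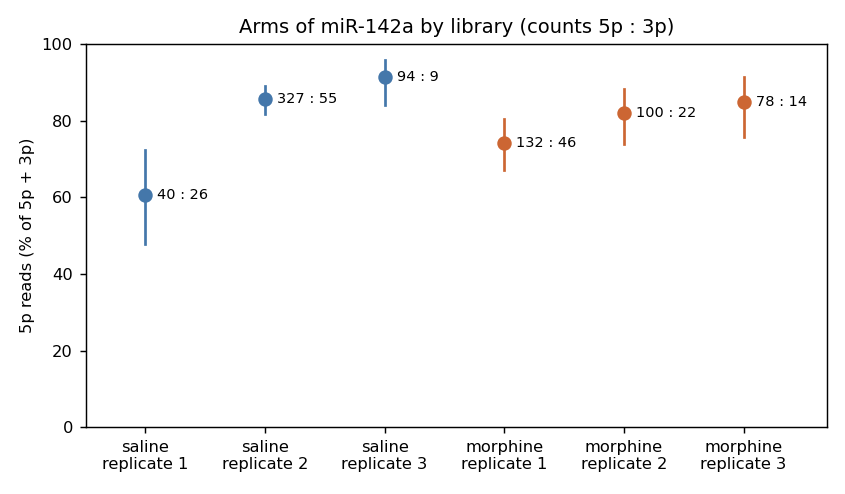
Share of miR-142a reads that came from the 5p arm, in percent of both arms, in each saline (blue) and morphine (orange) library. Vertical lines are exact 95% binomial intervals and the numbers beside the points are counts of the 5p and 3p arm, which show that saline replicate 1, at 60.6%, has the lowest share.

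miR-155-5p, like miR-146a-5p known to be induced by Toll-like receptor signalling, was at low counts, though above 3 counts in every library. It had 17, 16 and 20 counts under saline and 56, 32 and 20 under morphine, or 3.11, 2.40 and 2.10 against 6.20, 4.69 and 3.14 CPM. After TMM scaling the groups did not overlap, with morphine replicate 3 very close to saline replicate 1. Scaled to library totals alone they did overlap, with morphine replicate 3 at 2.64 CPM below saline replicate 1 at 4.06 CPM and saline replicate 3 at 2.77 CPM. The means were 2.54 ± 0.521 CPM (SD, n = 3) and 4.67 ± 1.53 CPM (SD, n = 3), and the log2 fold change of 0.89 ± 0.65 (SE) did not meet the criteria (edgeR adjusted p = 0.503). Its 95% interval ran from -0.46 to 2.23, so a change of the size seen for miR-146a-5p was just outside it and no change was within it. The log2 fold change was above 0 in all 18 alternative settings, between 0.56 and 1.26, and met the criteria in none of them.

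miR-223-3p, the myeloid miRNA, was the least abundant member by mean level in both groups. It had 6, 6 and 26 counts under saline and 42, 7 and 4 under morphine, or 1.10, 0.900 and 2.73 against 4.65, 1.03 and 0.628 CPM. In each group 1 library lay well above the rest, and the groups overlapped. Its log2 fold change of 0.41 ± 0.82 (SE), with an edgeR adjusted p of 0.792, had a 95% interval from -1.30 to 2.11, and it turned to -0.82 without morphine replicate 1. No difference was detected, and the parts of depth and of the spread between libraries in this were not tested.

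**Figure D4:**
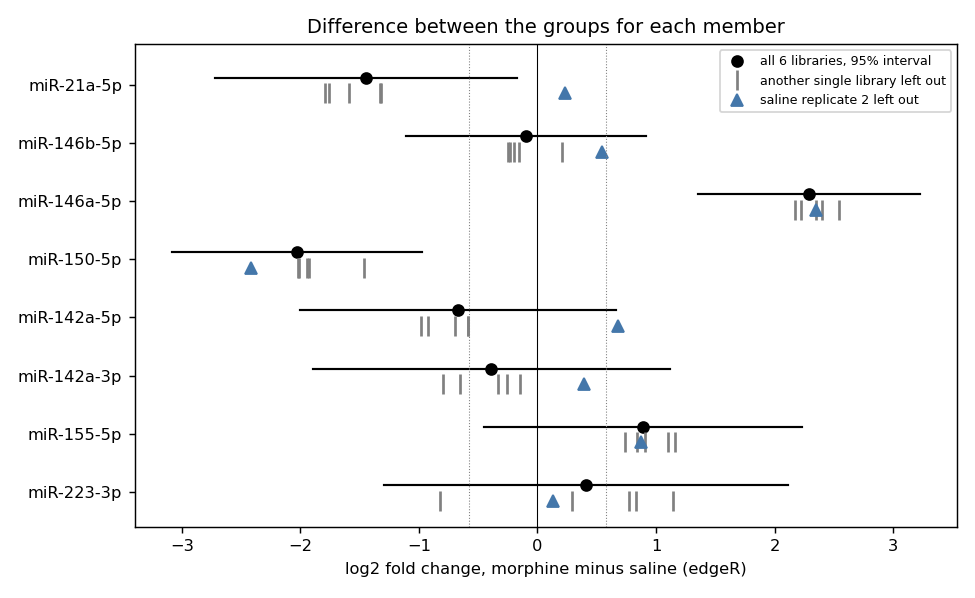
log2 fold change of each member, morphine minus saline, from edgeR. Black points and lines are the estimate from all 6 libraries and its 95% interval, blue triangles the estimate without saline replicate 2, grey ticks the estimates without each other library, and dotted lines 0.58 in either direction. The triangles of miR-21a-5p, miR-146b-5p, miR-142a-5p and miR-142a-3p lie on the other side of 0, whereas those of miR-146a-5p (2.35) and miR-150-5p (-2.42) stay on the same side and within the interval.

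In mean CPM, the members ranked in the saline group from miR-21a-5p (8618 ± 10247, SD, n = 3) through miR-146b-5p, miR-150-5p, miR-146a-5p, miR-142a-5p, miR-142a-3p and miR-155-5p to miR-223-3p (1.58 ± 1.003, SD, n = 3). Only the steps from miR-146b-5p to miR-150-5p and from miR-146a-5p to miR-142a-5p separated neighbours whose 3 values did not overlap. In the morphine group the order ran from miR-21a-5p (3163 ± 920 CPM, SD, n = 3) through miR-146b-5p, miR-146a-5p, miR-150-5p, miR-142a-5p, miR-155-5p and miR-142a-3p to miR-223-3p (2.10 ± 2.21 CPM, SD, n = 3). There the values of neighbours down to miR-155-5p did not overlap, and those of miR-155-5p, miR-142a-3p and miR-223-3p did. These orders are of read levels, and whether they follow the amounts of the RNAs was not tested.

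The likeness of level patterns over the 6 libraries was measured as the root mean square difference of centred log2(CPM + 1), among 454 miRBase miRNAs with at least 10 counts in every library. The nearest pattern to miR-146a-5p was that of miR-24-1-5p (0.241), to miR-150-5p that of miR-3072-3p (0.199), to miR-21a-5p that of miR-16-1-3p (0.171) and to miR-146b-5p that of miR-1839-5p (0.124). For miR-142a-5p it was miR-148b-5p (0.163) and for miR-155-5p miR-15b-5p (0.212). Among the members themselves, miR-142a-5p and miR-21a-5p were the closest pair (0.442), both with their highest value in saline replicate 2, and miR-146a-5p and miR-150-5p were the farthest apart (2.16). Over the 5 libraries without saline replicate 2, miR-155-5p and miR-21a-5p were the closest pair (0.266), while miR-146a-5p and miR-150-5p were again the farthest apart (2.34). The nearest pattern was then still miR-1839-5p for miR-146b-5p (0.132), and it was another miRNA for the other 5 members, miR-335-5p for miR-146a-5p (0.145), miR-877-3p for miR-150-5p (0.201), miR-221-5p for miR-21a-5p (0.088), miR-299a-5p for miR-142a-5p (0.063) and miR-153-5p for miR-155-5p (0.182).

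Of 8 further miRNAs listed for immune cells, 1 was higher and 1 lower in the morphine group by the DEmiRNA criteria, and neither had an adjusted p under 0.05. Over all rows 19.4% met the criteria, 9.68% in each direction. miR-187-3p, which interleukin 10 induces in monocytes, was at 662, 453 and 665 CPM in the saline libraries and at 1393, 1318 and 1231 CPM in the morphine libraries (log2 fold change 1.15, adjusted p = 0.143 with edgeR). miR-342-5p, from the Evl gene, was at 50.7, 16.2 and 35.4 CPM against 12.1, 13.2 and 9.11 CPM (log2 fold change -1.57, adjusted p = 0.1003 with edgeR). The groups did not overlap for either of them, which was so for 22.1% of all rows. Without saline replicate 2 their log2 fold changes were 0.99 and -1.91, with adjusted p of 0.000495 and 2.4e-06 (edgeR), in a fit where 29.1% of all rows had an adjusted p under 0.05. The other arm of the latter, miR-342-3p, had a log2 fold change of 0.55 (adjusted p = 0.563 with edgeR). The macrophage miRNA miR-511, which lies in the Mrc1 gene, had at most 5 counts in any library in either arm, and the arms of miR-147 had at most 7.

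Of the listed markers of other cells, miR-126a-3p of endothelial cells was higher in the morphine group and miR-124-3p of neurons was lower, and these were the markers with an adjusted p under 0.05. Over all rows 5.21% had an adjusted p under 0.05 (edgeR). The 2 endothelial miRNAs summed to 1485 to 5002 CPM in the saline group, or up to 1633 CPM without saline replicate 2, and to 10984 to 16264 CPM in the morphine group. miR-126a-3p rose (log2 fold change 2.42, adjusted p = 0.00818 with edgeR), whereas the other arm of its hairpin, miR-126a-5p, had a log2 fold change of -0.96 (adjusted p = 0.522 with edgeR), which became 1.25 without saline replicate 2 (adjusted p = 0.00219 with edgeR). Of the 4 neuronal miRNAs, miR-124-3p had a log2 fold change of -1.88 (adjusted p = 0.0195 with edgeR) and the other 3 did not meet the criteria. Without saline replicate 2, miR-124-3p was at -2.04, and miR-9-5p and miR-137-3p turned from -0.15 to 0.65 and from -0.24 to 2.42 and met them. In that fit 37% of all rows met the criteria and 29.1% had an adjusted p under 0.05 (edgeR).

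The 4 erythroid miRNAs in the table summed to 216 to 312 CPM in the saline group and 360 to 572 CPM in the morphine group. 1 of the 4, miR-451a, met the DEmiRNA criteria, as did 19.4% of all rows (log2 fold change 1.57, adjusted p = 0.0698 with edgeR). The other 3 did not, and their log2 fold changes were below 0, at -0.20 for miR-486a-5p, -1.16 for miR-144-5p and -1.31 for miR-144-3p, which had at most 1 count in 2 libraries of each group. Without saline replicate 2, miR-451a was at 2.12, miR-486a-5p met the criteria at -0.65, and miR-144-5p and miR-144-3p turned to 1.07 and 1.35 without meeting them. Of all rows, 37% met the criteria in the fit without saline replicate 2. The 4 choroid plexus and ciliated cell miRNAs summed to 1945 to 2766 CPM and 940 to 992 CPM. 1 of these, miR-204-5p, which made up most of the sum, met the criteria (log2 fold change -1.50, adjusted p = 0.0533 with edgeR), and the other 3 did not, at 0.69 for miR-449a-5p, 0.17 for miR-34b-5p and -0.29 for miR-34c-5p. Without saline replicate 2, miR-204-5p was at -1.74 and those 3 met the criteria in the other direction, miR-449a-5p at 1.85 and miR-34c-5p at 1.28, while miR-34b-5p had no count in the saline libraries left.

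The 2 mural miRNAs summed to 7134 to 18936 CPM in the saline group, or up to 9167 CPM without saline replicate 2, and to 5709 to 13728 CPM in the morphine group. The 2 oligodendrocyte miRNAs summed to 1809 to 1901 CPM and 1571 to 1959 CPM. None of these 4 met the criteria with all 6 libraries. Without saline replicate 2, miR-145a-5p of the mural list, at -0.72, and miR-338-3p of the oligodendrocyte list, which turned from -0.31 to 0.88, met them, and miR-143-3p turned from -0.47 to 0.09 without meeting them. In that fit the criteria were met by 37% of all rows. The part of these markers in the differences of miR-146a-5p and miR-150-5p was not tested.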

How the data were processed

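Small RNA was sequenced from the NAc of 3 saline and 3 morphine libraries. The authors discarded reads of low quality, with adapters or with runs of N, used Bowtie to filter out repeats and other classes of non-coding RNA, and searched miRBase with what remained. For each mature miRNA the deposited table holds the raw read count of each library. The deposited TPM values are each count scaled to its library total and were not tested. The genome build and miRBase release are not given in the sources used here. The number of unused columns was 0.

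TMM scaling and edgeR's quasi-likelihood F test (version 4.0.16, R 4.3.3) were applied to the counts of the 6 libraries, without covariates, over all 1364 rows with at least 1 count. The edgeR p-values set the group difference against the spread between these samples, with the dispersion moderated over all rows. The SE came from the fitted weights and the moderated quasi-dispersion, and the 95% interval from its t quantile. Ratios within a library were compared with exact permutation tests. The members, comparison lists and tests were chosen with earlier results of these data known. Named miRNAs were the 8 members, their other arms and near-identical rows, 8 listed immune miRNAs, listed markers of other cells, and the nearest patterns. miR-146a-3p, miR-155-3p, miR-21b, miR-21c and miR-486b-5p had no row in the table used here. Alternatives were other scalings, filters, tests (including DESeq2 1.42.0), thinning, a replicate block and leaving out each library.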

Additional observations from a re-analysis of the deposited data

How the results depend on the processing

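The number of members that met the study's criteria was 3 and stayed at 2 or 3 in every alternative. The number with an adjusted p under 0.05 was 2, became 3 with library totals and with upper quartile scaling, where miR-21a-5p passed at 0.0326 and 0.0251 (edgeR), and became 1 with a minimum of 10 counts in total, with filterByExpr, with the replicate block and without the 244 rows that repeat the counts of another row, an alternative chosen after seeing the data, as was leaving saline replicate 2 out of the marker values and level patterns. It ranged from 0 to 3 when single libraries were left out, and was 0 without morphine replicate 1. miR-146a-5p and miR-150-5p kept their direction and met the criteria in all 18 alternatives. The call of miR-21a-5p was lost with DESeq2 (-1.50), the edgeR exact test (-1.45), the minimum of 10 counts (-1.51), filterByExpr (-1.35), the replicate block (-0.69) and without repeated rows (-1.38), and its log2 fold change ranged from -1.79 to 0.23 when single libraries were left out. miR-146b-5p turned to 0.03 with the replicate block, to 0.0012 without repeated rows and ranged from -0.25 to 0.54 without single libraries. The same range was -0.80 to 0.39 for miR-142a-3p, -0.98 to 0.68 for miR-142a-5p and -0.82 to 1.14 for miR-223-3p. The difference in 5p share ranged from -8.13 to 7.20 percentage points for miR-142a, from -0.0436 to 0.0514 for miR-146b and from -0.512 to 0.167 for miR-150. The cause of these changes was not tested.
Over all rows, 264 met the criteria and 71 had an adjusted p under 0.05. The second number was 94 with relative log expression scaling, 160 with library totals, 153 with upper quartile scaling, 126 with DESeq2, 28 with at least 10 counts, 56 with filterByExpr, 110 with miRBase names only, 117 after thinning, 32 with the replicate block and 0 to 386 without single libraries. Without single libraries 176 to 492 met the criteria, the most without saline replicate 2 and the fewest without morphine replicate 1. Of the calls 50.0% were higher in the morphine group, against 34.9% with library totals, 37.7% with upper quartile scaling and 61.5% with the replicate block, while the median log2 fold change of all rows moved from -0.15 to -0.40, -0.35 and 0.04. Deviations of same-numbered libraries from their group means correlated at -0.23, -0.28 and 0.14, so the numbers were not taken to pair the samples. In the replicate block fit, miR-146a-5p had a log2 fold change of 2.31 (adjusted p = 0.0463 with edgeR) and miR-150-5p one of -1.81 (adjusted p = 0.166 with edgeR). At this depth miR-223-3p, miR-155-5p and miR-142a-3p rest on 4 to 56 counts a library.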
